A study of Mus musculus with 9 samples.

Results

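Histone genes were examined in RNA sequencing libraries from B.END3 cells exposed to photodynamic therapy (PDT), in which a light-sensitive drug and red light together produce reactive oxygen in the cell. The members were the 87 genes, of 54532 in the expression table, whose symbols begin with Hist1h, Hist2h, Hist3h, Hist4h, H2af, H3f or H1f, and 4 further genes whose names mark them as pseudogenes were left out. Of the 87 genes, 69 carried a Hist symbol and are called clustered genes here, and 18 carried an H2af, H3f or H1f symbol and are called variant genes. The variant symbols include H3f3c and H2afy3, annotated in GENCODE M39 as processed pseudogenes, and H3f3aos, a noncoding RNA opposite H3f3a, and the Hist symbols include Hist1h2aj and Hist1h2al, also annotated as pseudogenes. The clustered genes comprised 6 H1, 20 H2A, 18 H2B, 12 H3 and 13 H4 genes, and 56 of the 69 lay on chromosome 13. The variant genes comprised 4 H1, 10 H2A and 4 H3 symbols spread over 10 chromosomes.

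B.END3 is a mouse line from brain microvessel endothelium, given by the labels as C57BL/6. The Ctrl group was untreated, the Ep1 group received porfimer sodium at 300 µg/mL for 90 min and then 635 nm light at 100 mW/cm2 to a dose of 10 J/cm2, and the Ep2 group differed from Ep1 in its light dose of 20 J/cm2. Each group held 3 libraries of a single cell line. Neither a group with drug and no light nor one with light and no drug is among the 9 samples. Drug and light therefore cannot be told apart in comparisons with Ctrl. Ep1 and Ep2 had the same drug dose and differed in light dose, but light without the drug cannot be assessed. The sources used here do not state the interval between light and RNA collection, whether RNA was selected by its poly(A) tail, or whether the libraries of a group came from separate cultures, so p-values measure the spread between these libraries, which may be technical.

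Nucleosomes wrap DNA around H2A, H2B, H3 and H4, and linker histones of the H1 family bind where the DNA enters and leaves. Most clustered genes are transcribed in S phase, and their mRNAs end in a conserved stem-loop bound by the stem-loop binding protein SLBP in place of a poly(A) tail. Variant genes such as H3f3a, H3f3b, H2afz and H1f0 make polyadenylated mRNA through the cell cycle, and some clustered genes can also be read through to a downstream polyadenylation site when cells stop dividing.

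The expression values were FPKM, that is fragments scaled to gene length and to library size, so levels of different genes can be set side by side per length. The libraries held 16240688 to 19509225 fragments recovered from the FPKM values. Of 12 endothelial markers 2 reached FPKM 1 in at least 3 libraries, their summed level was 3.65 to 5.20 FPKM over all libraries, and Erg and Emcn were at 0. The summed level of 6 epithelial markers was 1029 to 1081 FPKM in Ctrl, 937 to 1041 in Ep1 and 1155 to 1372 in Ep2, nearly all of it from the keratin genes Krt8, Krt18 and Krt19, while Cdh1 reached at most 0.103 FPKM and Krt7 was at 0. The summed level of 6 mesenchymal markers, mostly Vim, was 702 to 730.3 FPKM in Ctrl, 695 to 761 in Ep1 and 740 to 814 in Ep2. The endothelial identity in the labels was not borne out by the endothelial markers. Of 4 leukocyte markers Cd68 alone reached the filter, at 23.1 to 24.9 FPKM summed over the list in Ctrl, 20.1 to 25.2 in Ep1 and 76.6 to 91.9 in Ep2. Germ cell markers summed to at most 0.360 FPKM. In bulk RNA, fewer cells of a type and less RNA per cell cannot be told apart, and the part of these differences in the results that follow was not tested.

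The 3′ stem-loop is the sequence that sets the clustered genes apart. In the transcript models of GENCODE M39, matched by Ensembl gene ID, it was found in 47 of 69 clustered genes and in 1 of 18 variant genes, H2afx, against 64 of all 21770 protein-coding genes, 0.294%. For 13 of the 22 clustered genes without it, every model ended at the stop codon, so no stem-loop could be seen. The most frequent form, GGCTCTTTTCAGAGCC, occurred in 27 clustered genes, and the loop began 21 to 58 bases after the stop codon with a median of 31. The stem-loops of 8 of the genes described below, chosen to show the forms found in H1, H2A, H2B and H4 genes and in H2afx, are given in the mRNA sense with 5 bases on either side, the 16 bases of the stem and loop in capitals.
Hist1h1c: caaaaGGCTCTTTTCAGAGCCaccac
Hist1h4i: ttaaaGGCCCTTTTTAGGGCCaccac
Hist1h2bg: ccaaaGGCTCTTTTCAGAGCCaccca
Hist1h2ao: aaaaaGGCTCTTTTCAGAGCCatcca
Hist1h4j: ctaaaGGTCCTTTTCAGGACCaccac
Hist1h2ac: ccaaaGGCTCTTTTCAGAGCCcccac
Hist4h4: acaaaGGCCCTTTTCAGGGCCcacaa
H2afx: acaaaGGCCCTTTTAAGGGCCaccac
The H1, H2A and H2B genes of this set shared 1 core sequence, and the H4 genes and H2afx each carried another. The model went on past the stem-loop for 840 bases in Hist1h1c, 330 in Hist1h4i and 822 in H2afx.

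The promoters also differed between the classes. RefSeq promoters of the GRCm38.p6 build, the 250 bases before the annotated start, were matched for 61 clustered and 14 variant genes and searched on both strands. CCAAT, the letters of the CCAAT box, occurred in 82.0% of the clustered and 57.1% of the variant promoters, against 33.8% of all 32851 promoters. TATAAA, the letters of the TATA box, occurred in 45.9% of clustered, none of the 14 variant and 12.4% of all promoters. The octamer ATTTGCAT was found in 7 of 18 H2A and 6 of 16 H2B promoters and in no clustered H1, H3 or H4 promoter, against 1.60% of all promoters. AAACACA, an element known from H1 promoters, was found in 4 of 5 clustered H1 promoters and in 6.25% of all promoters. H2A and H2B genes are often paired head to head and then share their promoter window, so these counts are not of independent sequences. The promoters below are shown because their genes rose (Hist1h1c, Hist1h2bg) or fell (H2afz) in the Ep2 group, each 5′ to 3′ on the strand of its gene with the searched motifs in capitals, where ATTGG is CCAAT on the other strand.
Hist1h1c, chr13:23738557-23738806, + strand: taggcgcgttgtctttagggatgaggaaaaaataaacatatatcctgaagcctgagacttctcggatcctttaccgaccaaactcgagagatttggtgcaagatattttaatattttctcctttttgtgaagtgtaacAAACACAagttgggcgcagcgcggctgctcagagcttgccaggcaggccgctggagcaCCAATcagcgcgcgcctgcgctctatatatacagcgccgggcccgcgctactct
Hist1h2bg, chr13:23571150-23571399, + strand: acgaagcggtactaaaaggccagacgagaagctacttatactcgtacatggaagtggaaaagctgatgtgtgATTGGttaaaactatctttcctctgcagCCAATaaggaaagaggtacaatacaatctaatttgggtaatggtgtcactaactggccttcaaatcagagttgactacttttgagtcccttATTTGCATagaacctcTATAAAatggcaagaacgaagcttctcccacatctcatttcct
H2afz, chr3:137864237-137864486, + strand: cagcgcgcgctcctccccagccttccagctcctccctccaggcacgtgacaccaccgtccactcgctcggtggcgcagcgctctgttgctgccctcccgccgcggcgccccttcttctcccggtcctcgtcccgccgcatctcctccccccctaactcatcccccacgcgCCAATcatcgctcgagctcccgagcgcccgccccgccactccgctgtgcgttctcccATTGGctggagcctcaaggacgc
The Hist1h1c window held AAACACA and 1 CCAAT, the Hist1h2bg window held 2 CCAAT, the octamer and TATAAA, and the H2afz window held 2 CCAAT and no TATAAA. A match is a run of letters and not a measured binding site.

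The variant genes had far higher levels in these libraries than the clustered genes. Most clustered mRNAs lack a poly(A) tail, and whether RNA was selected by that tail is not stated. Levels in the cell may therefore differ from those given here. The median of the mean level over the 9 libraries was 5.53 FPKM for the 18 variant genes and 0.281 FPKM for the 69 clustered genes. A mean of at least 10 FPKM was reached by 8 variant genes and by 2 clustered genes, the linker histone gene Hist1h1c and the H4 gene Hist1h4i, and 53 of the 69 clustered genes lay below 1 FPKM. No fragment was assigned in any library to 9 clustered and 4 variant genes, which allows up to 3 expected fragments over the 9 libraries together by counting error alone. Those 4 variants were H2afb1, H2afb2, H2afb3 and H1fnt, known from the testis. Of the 9 clustered genes at 0, 2 shared every 150-base stretch of their transcript with another gene, so their own reads could not have been assigned uniquely, and 7 had some unique sequence.

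The summed level showed the same gap in every library. The clustered sum was 99.0 ± 1.39 FPKM in the Ctrl group, 106 ± 2.75 at the lower dose and 131 ± 27.4 at the higher dose (mean ± SD of 3 libraries). The variant sum was 889 ± 10.9, 962 ± 6.54 and 840 ± 64.8 FPKM in the same order. The ratio of variant to clustered level was 8.97 ± 0.0479 in Ctrl, 9.07 ± 0.261 in Ep1 and 6.52 ± 0.846 in Ep2. The clustered genes made up 10.0% of the histone FPKM in the Ctrl libraries, 9.94% in Ep1 and 13.4% in Ep2, and as a share of histone fragments, not scaled to length, 4.77%, 4.71% and 6.82%. Among the Ep2 libraries, replicate 1 stood above the others at 163 FPKM of clustered histone, against 115 and 115 in replicates 2 and 3. Hist1h1c alone supplied 32.5% to 39.1% of the clustered level in the Ctrl libraries and 44.6% to 48.8% in the Ep2 libraries. Without Hist1h1c the clustered sum was 59.5 to 67.7 FPKM in Ctrl, 65.8 to 70.4 in Ep1 and 59.1 to 85.8 in Ep2, so the groups overlapped.

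**Figure D1:**
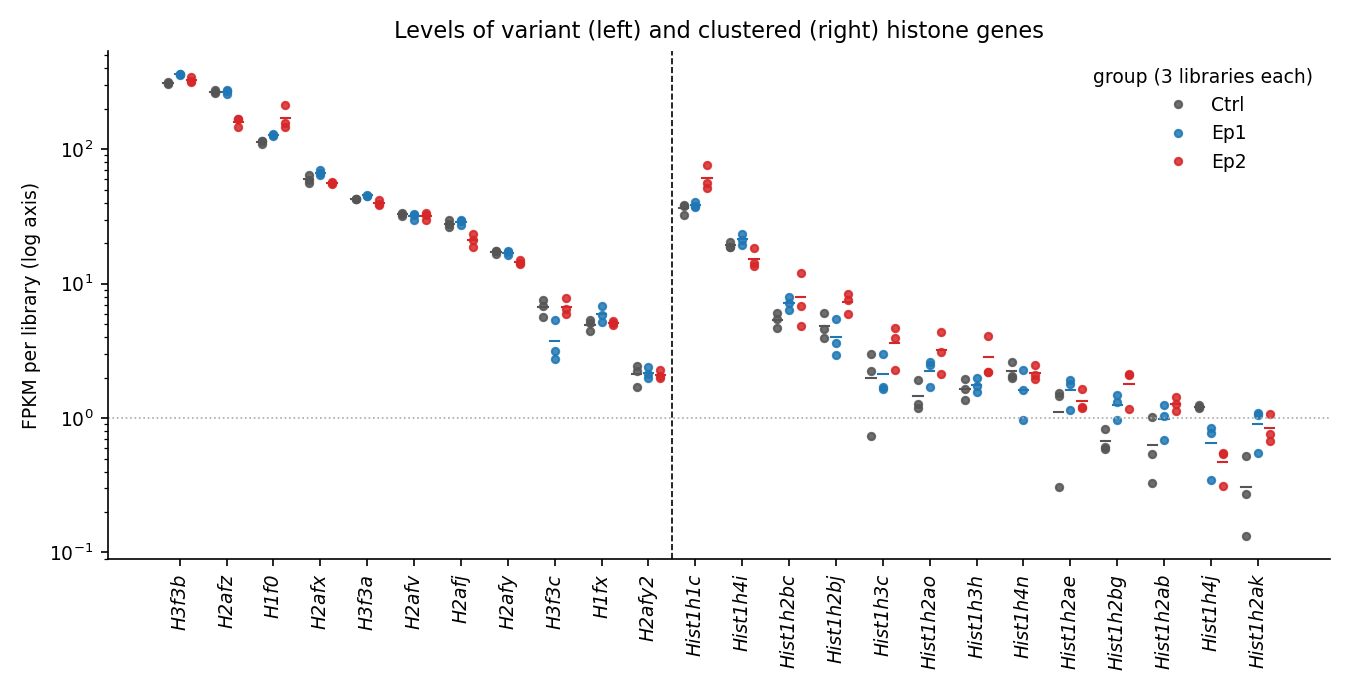
FPKM of the named histone genes that passed the filter in each of the 9 libraries, on a log axis, with Ctrl in grey, Ep1 in blue and Ep2 in red, short lines at the group means and a dotted line at 1 FPKM. The variant genes lie left of the dashed line, from H3f3b at a mean of 334 FPKM to H2afy2 at 2.13, and the clustered genes right of it, from Hist1h1c at 45.6 to Hist1h2ak at 0.683.

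The level of clustered genes was also set beside the 3′ end of their models. A polyadenylation hexamer, AATAAA or ATTAAA in the last 50 bases of any model of the gene, was present for 20 of 69 clustered genes and 12 of 18 variant genes, against 84.6% of protein-coding genes. Genes with more models had more chances of a match, and models per gene differed, with 1 for Hist1h1c and 41 for H2afy. The 3 most abundant clustered genes, Hist1h1c, Hist1h4i and Hist1h2bc, all had the hexamer and at least 330 bases of model beyond the stem-loop. Hist1h2bc had 5 models, 1 of them with the stem-loop, so its hexamer may lie in another model. The medians did not differ in that direction, at 0.234 FPKM for the 20 clustered genes with a hexamer and 0.293 FPKM for the 49 without. Of the 12 variant genes with a hexamer 10 passed the filter, with a median over the 12 of 29.1 FPKM. The highest level among the clustered genes without a hexamer was 5.39 FPKM, in the H2B gene Hist1h2bj. RNAs known to lack a poly(A) tail were listed at low levels or at 0. Rn7sk lay at 0.157 to 3.78 FPKM and Terc at 0.512 to 2.36 FPKM, and Rmrp, Rpph1 and Rnu7 were listed at 0 in every library (these 5 genes were chosen after values were seen). Rnu7 is shorter than a 150 bp read, so its 0 is uninformative about poly(A) selection. Whether the levels of the other genes depend on such selection was not tested.

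**Figure D2:**
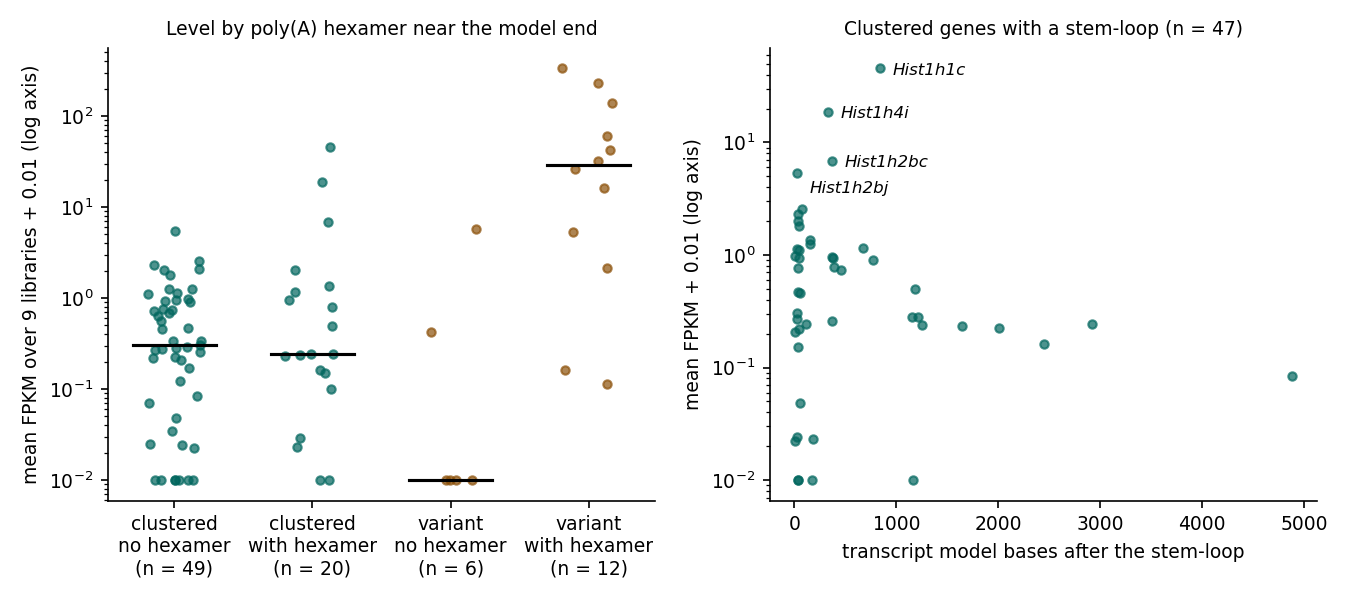
Left, mean FPKM over the 9 libraries plus 0.01 on a log axis for clustered and variant genes with and without a polyadenylation hexamer in the last 50 bases of a model, each point a gene and each bar a median, so that points at 0.01 have no fragment. Right, the same level against the number of model bases after the stem-loop for the 47 clustered genes that have one, in which Hist1h1c at 45.6 FPKM and Hist1h4i at 18.7 FPKM stand above the rest.

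Which histone genes differed between the groups was tested with limma on log2(FPKM + 1), with an adjusted p (Benjamini-Hochberg over 11727 genes) below 0.05 as the call. A gene was tested if 3 or more libraries had FPKM 1 or above, which 23 clustered and 11 variant genes met, so the counts below describe those 34 genes and not all 87. The added 1 shrinks the fold changes of genes near 1 FPKM, so their size cannot be set beside that of abundant genes. In Ep2 with Ctrl 4 of 11 variant genes were called, 1 higher and 3 lower, against 53.2% of all genes tested. At the lower dose 1 of 11 was called higher in Ep1 with Ctrl, against 11.3% of all genes (6.32% higher and 4.97% lower). In Ep2 with Ep1 8 of 11 were called, 2 higher and 6 lower, against 44.0% of all genes (18.8% higher and 25.2% lower), and without Ep1 replicate 3 the count was 5. Ep1 with Ctrl and Ep2 with Ctrl share the Ctrl libraries. The median log2 fold change of the variant genes was -0.04 in Ep2 with Ctrl, beside -0.03 over all genes tested, and its sign followed the scaling, being 0.00 after median centring and 0.09 after correction for gene length and GC content.

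H2afz fell the furthest of the variant genes in the Ep2 group. The gene (ENSMUSG00000037894, chr3:137864487-137866922 of GRCm38, H2az1 in current annotation) encodes H2A.Z, a variant placed at promoters by dedicated remodellers. The Ctrl libraries gave 261, 278 and 269 FPKM, the Ep1 libraries 257, 276 and 271, and the Ep2 libraries 167, 169 and 146. Every Ep2 library lay below every Ctrl and Ep1 library, and Ctrl and Ep1 overlapped. The Ep2 level was 0.597 times that of Ctrl, a log2 fold change of -0.75 ± 0.06 (SE, limma adjusted p = 1.43e-05), and the log2 fold change in Ep2 with Ep1 was -0.74 ± 0.06 (limma adjusted p = 2.36e-05). The log2 fold change in Ep1 with Ctrl was -0.01 (limma adjusted p = 0.943).

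H2afv, the second H2A.Z gene, gave a different picture. Its level was 33.0, 33.4 and 31.9 FPKM in the Ctrl group, 32.5, 33.3 and 29.8 in Ep1 and 32.2, 33.4 and 29.9 in Ep2, so the groups overlapped. Its log2 fold change in Ep2 with Ctrl was -0.04 ± 0.06 (limma adjusted p = 0.547), and its sign turned after median centring and after gene length correction. The H2afz to H2afv ratio of FPKM within a library was 7.92 to 8.42 in Ctrl, 7.89 to 9.11 in Ep1 and 4.87 to 5.19 in Ep2. A ratio within a library does not depend on the scaling of that library, and the ranges of Ep2 and of the other groups did not overlap.

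H1f0 moved the other way. It encodes the replacement linker histone H1.0, known to accumulate in cells that have stopped dividing. Its level was 109, 115 and 115 FPKM in the Ctrl libraries, 126, 129 and 131 in Ep1 and 214, 157 and 147 in Ep2. The 3 groups did not overlap, and Ep2 replicate 1 was far above the other Ep2 libraries. In Ep2 with Ctrl the log2 fold change was 0.59 ± 0.12 (limma adjusted p = 0.00302), and it was 0.42 without Ep2 replicate 1 and still called. In Ep2 with Ep1 the log2 fold change was 0.40 ± 0.12 (limma adjusted p = 0.0235), a call that was lost when any of the Ep1 libraries was left out (adjusted p up to 0.0626), with no filter (adjusted p = 0.0588) and with only those groups in the fit (adjusted p = 0.0503). For Ep1 with Ctrl it was 0.19 ± 0.12 (limma adjusted p = 0.331), and the same difference was called with only those groups in the fit (limma adjusted p = 0.0143) and without Ep2 replicate 1 (limma adjusted p = 0.0146). H1fx, the other linker variant that passed, lay between 4.43 and 6.85 FPKM with overlapping groups and was not called in any comparison.

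H3f3b was the only histone gene that limma called in Ep1 with Ctrl. H3f3b and H3f3a encode the same H3.3 protein, whose deposition is not confined to S phase. H3f3b (ENSMUSG00000016559), the most abundant histone gene, was at 315, 310.1 and 308 FPKM in the Ctrl group, 365, 360.0 and 363 in Ep1 and 348, 324 and 315 in Ep2. The Ep1 libraries lay above all others, and Ep2 overlapped Ctrl. The log2 fold change was 0.22 ± 0.04 in Ep1 with Ctrl (limma adjusted p = 0.0147), and the call was lost without Ctrl replicate 2, Ep1 replicate 1 or Ep1 replicate 3 (adjusted p 0.0552 to 0.0694). In Ep2 with Ep1 it was -0.14 ± 0.04 (limma adjusted p = 0.0218), which median centring took to -0.08 (adjusted p = 0.129) and which was also lost without any single Ep1 library, without Ep2 replicate 2 or 3, with only those groups in the fit (adjusted p = 0.0541), after gene length correction (adjusted p = 0.114) and after length and GC correction (adjusted p = 0.113). H3f3a was at 42.4 to 43.0 FPKM in the Ctrl libraries, 44.9 to 46.1 in Ep1 and 38.3 to 41.8 in Ep2. Its log2 fold change in Ep2 with Ep1 was -0.19 (limma adjusted p = 0.0048), and the log2 fold change in Ep2 with Ctrl was -0.10 (limma adjusted p = 0.0594).

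H3f3c is annotated in GENCODE M39 as a processed pseudogene, and 51.5% of its 150-base windows were unique, so reads of other H3.3 transcripts may be counted there. Its level was 5.63 to 7.59 FPKM in the Ctrl group, 2.77 to 5.37 in Ep1 and 6.00 to 7.77 in Ep2. All Ep1 libraries were below the other groups. The log2 fold change was 0.74 ± 0.20 in Ep2 with Ep1 (limma adjusted p = 0.0154), lost without Ep1 replicate 3 or Ep2 replicate 3 (adjusted p up to 0.0564). In Ep1 with Ctrl it was -0.72 ± 0.20 (limma adjusted p = 0.0501), and -0.88 with adjusted p = 0.0336 by voom on the recovered fragments.

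Among the remaining H2A variants, H2afj and H2afy were lower in Ep2 than in either other group. H2afj, an H2A variant known from senescent cells, was at 27.7, 29.9 and 26.3 FPKM in Ctrl and 23.4, 21.2 and 18.8 in Ep2. Its log2 fold change in Ep2 with Ctrl was -0.39 (SE 0.08, limma adjusted p = 0.00219) and in Ep2 with Ep1 -0.43 (limma adjusted p = 0.00166). H2afy encodes the large variant macroH2A1, and its level was 16.7 to 17.6 FPKM in Ctrl and 14.1 to 15.1 in Ep2. It fell by 0.23 in Ep2 with Ctrl (SE 0.05, limma adjusted p = 0.00248). H2afx, whose protein is phosphorylated at DNA breaks, was at 56.4 to 64.3 FPKM in the Ctrl libraries, 64.5 to 69.7 in Ep1 and 55.4 to 57.2 in Ep2. It fell by 0.25 in Ep2 with Ep1 (SE 0.05, limma adjusted p = 0.00435) and was not called in either comparison with Ctrl. The second macroH2A gene, H2afy2, lay between 1.69 and 2.45 FPKM with overlapping groups and was not called. The pseudogene H2afy3, the oocyte linker gene H1foo and the noncoding H3f3aos lay below the filter at means of 0.409, 0.154 and 0.104 FPKM.

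**Figure D3:**
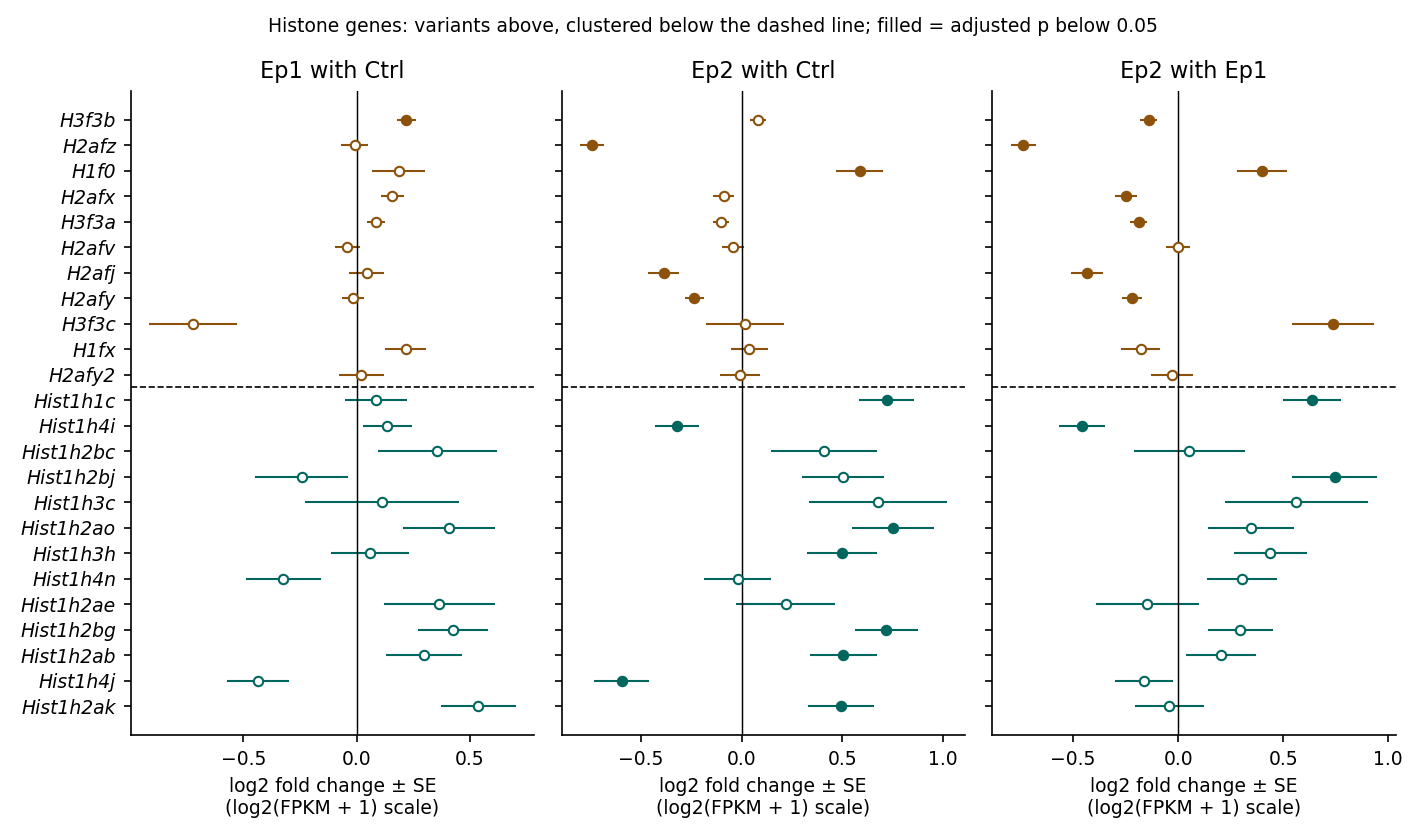
Log2 fold change with its standard error from limma on log2(FPKM + 1) for the named histone genes in the 3 comparisons, variants above and clustered genes below the dashed line, with filled points at adjusted p below 0.05. In Ep2 with Ctrl H2afz at -0.75 is the lowest point and Hist1h2ao at 0.75 the highest, and 1 filled point, H3f3b, is seen in Ep1 with Ctrl. The added 1 shrinks the values of genes near 1 FPKM.

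Of the 23 clustered genes tested, 8 were called in Ep2 with Ctrl, 6 higher and 2 lower, or 34.8% against 53.2% of all genes. By direction these were 26.1% higher against 23.9% of all genes and 8.70% lower against 29.3%. Between Ep1 and Ctrl limma called 0 of 23, with 3 at an unadjusted p below 0.05, and voom called 0 of 30, against 13.6% of the genes it tested. In Ep2 with Ep1 4 were called, 3 higher and 1 lower, against 44.0% of all genes. The count of 8 fell to 3 without Ctrl replicate 1, 5 without Ctrl replicate 2 and 5 without Ep2 replicate 1, and the count of 4 to 2 without Ep1 replicate 2 or Ep2 replicate 1. Some of these genes left the test and did not fail it. Hist1h4j was not tested without a Ctrl library, and Hist1h2ak and Hist1h4d were not tested without Ep2 replicate 1. The counts are a description of the genes that passed. Among the 8, Hist1h4j reached 1 FPKM in Ctrl libraries alone, and Hist1h2bg and Hist1h2ak in PDT libraries alone, so these 3 passed through the groups in which they were high.

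Hist1h1c encodes the linker histone H1.2, and its RNA had the highest level of the clustered genes in these libraries. The gene (ENSMUSG00000036181, chr13:23738808-23740367 of GRCm38) was at 38.8, 32.6 and 38.1 FPKM in the Ctrl group, 40.9, 37.2 and 38.02 in Ep1 and 76.9, 51.4 and 56.4 in Ep2. All Ep2 libraries lay above all others, and Ep1 overlapped Ctrl. The log2 fold change was 0.72 ± 0.14 in Ep2 with Ctrl (limma adjusted p = 0.00229) and 0.64 ± 0.14 in Ep2 with Ep1 (limma adjusted p = 0.00577). Without Ep2 replicate 1 the first was 0.55 and still called. Every 150-base window of its transcript was unique, so no such stretch was identical in another gene. How the aligner treated nearly identical reads was not examined. The remaining clustered H1 genes did not pass the filter, the highest of them being Hist1h1b at a mean of 0.328 FPKM. Together the clustered and variant H1 genes rose from 15.4% to 16.2% of the summed histone FPKM in the Ctrl libraries to 22.6% to 27.7% in the Ep2 libraries.

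The 2 clustered genes called lower in Ep2 with Ctrl were both H4 genes, of 5 H4 genes tested. Hist1h4i, the second clustered gene by level, was at 18.9, 18.6 and 20.3 FPKM in the Ctrl libraries, 19.4, 21.0 and 23.6 in Ep1 and 18.3, 13.5 and 14.2 in Ep2. The log2 fold change in Ep2 with Ep1 was -0.46 (SE 0.11, limma adjusted p = 0.00772). In Ep2 with Ctrl it fell by 0.32 (SE 0.11, limma adjusted p = 0.0306), a call lost without any single Ctrl library or without Ep2 replicate 2 or 3 (adjusted p 0.0559 to 0.103), after median centring (adjusted p = 0.0568), with no filter (adjusted p = 0.0819) and after gene length correction (adjusted p = 0.0501). After length and GC correction it was -0.20 (limma adjusted p = 0.115). Hist1h4j was at 1.21, 1.25 and 1.18 FPKM in the Ctrl group, 0.770, 0.847 and 0.348 in Ep1 and 0.542, 0.552 and 0.311 in Ep2. It fell by 0.60 in Ep2 with Ctrl (SE 0.14, limma adjusted p = 0.00519), while in Ep1 with Ctrl the log2 fold change was -0.43 (limma adjusted p = 0.0717). The added 1 shrinks these values, and in Ep2 with Ctrl the alternatives ran from -1.33 to -0.50. Hist1h4j passed the filter through its Ctrl libraries alone, so a gene with this pattern had to be highest there. It was not tested when any Ctrl library was left out, so the range of alternatives holds no such fit. Hist1h4d rose by 0.40 in Ep2 with Ep1 (limma adjusted p = 0.0475), a call near the threshold. Its level reached 1 FPKM in Ctrl replicate 3 (1.18) and Ep2 replicates 1 and 3 (1.43 and 1.16). No Ep1 library reached 1 FPKM (0.381, 0.733 and 0.710). It is outside the naming rule, so alternative fits are not given for it. Hist1h4n at 0.971 to 2.62 FPKM was not called. The summed level of the 13 H4 genes was 26.5 to 28.4 FPKM in the Ctrl libraries, 26.4 to 30.4 in Ep1 and 19.3 to 26.2 in Ep2.

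**Figure D4:**
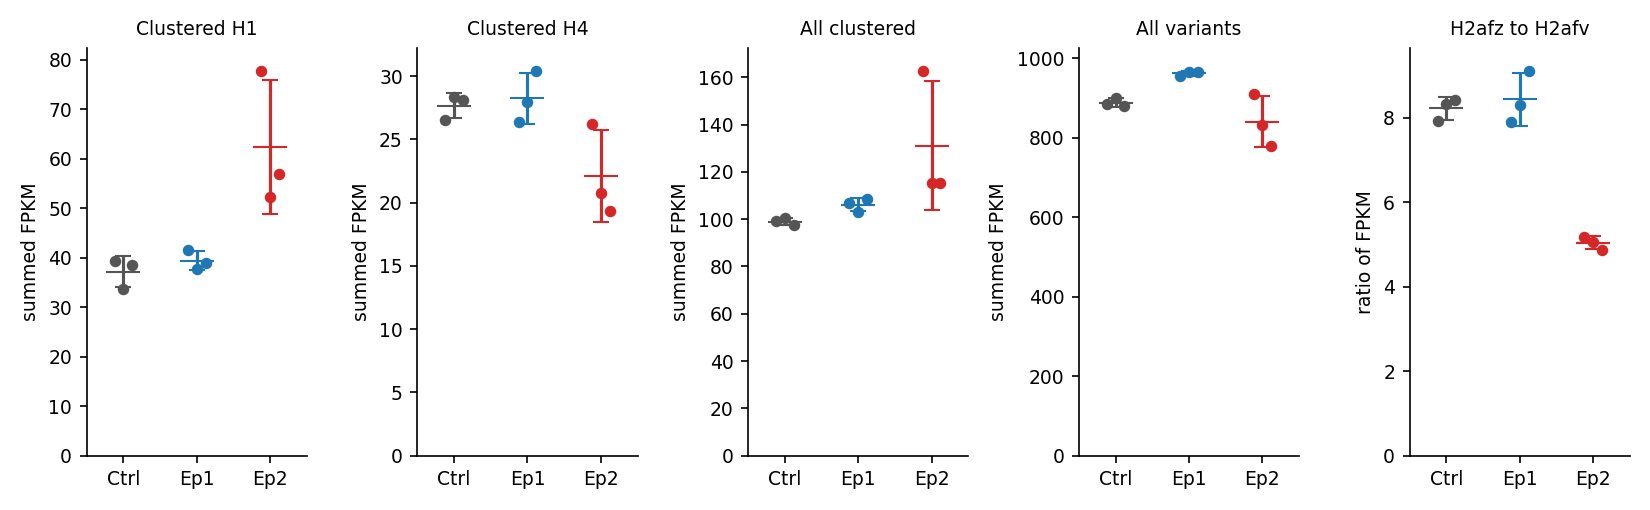
Summed FPKM of clustered H1, clustered H4, all clustered and all variant histone genes, and the H2afz to H2afv ratio of FPKM, with 1 point per library and bars for the mean and SD of 3 libraries in Ctrl (grey), Ep1 (blue) and Ep2 (red). The ratio falls from 7.92 to 8.42 in Ctrl to 4.87 to 5.19 in Ep2, and Ep2 replicate 1 (leftmost red point) has the highest sum in each of the first 4 panels among the Ep2 libraries.

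H2A, H2B and H3 genes supplied the other calls, at low levels. Hist1h2bg was at 0.587, 0.827 and 0.610 FPKM in the Ctrl group, 1.49, 0.965 and 1.31 in Ep1 and 2.12, 2.08 and 1.17 in Ep2. All Ep1 and Ep2 libraries lay above Ctrl, and the log2 fold change in Ep2 with Ctrl was 0.72 ± 0.16 (limma adjusted p = 0.00351). The alternatives for that fold change ran from 0.63 to 1.34. Hist1h2ao was at 1.19 to 1.91 FPKM in Ctrl and 2.13 to 4.37 in Ep2, with a log2 fold change of 0.75 ± 0.20 (limma adjusted p = 0.0127). Only 8.46% of the Hist1h2ao windows were unique, so its reads may belong to near-identical H2A genes. Hist1h2ab, Hist1h2ak and Hist1h3h rose by 0.50, 0.49 and 0.50 in Ep2 with Ctrl (limma adjusted p = 0.0285, 0.0287 and 0.0362), and Hist1h3h had 9.54% unique windows. Those 3 calls were lost with no filter (limma adjusted p = 0.0675, 0.0577 and 0.0934) and without Ctrl replicate 1 (limma adjusted p = 0.0991, 0.0948 and 0.0832). The calls of Hist1h2ab and Hist1h3h were also lost without Ctrl replicate 2 or Ep2 replicate 1 and by voom. Hist1h2ak reached 1 FPKM only in Ep1 replicates 2 and 3 and Ep2 replicate 1, so it was not tested without any of these. With at most 8 fragments in a library, it was not tested by voom either. Hist1h2ab was in addition not called without Ep2 replicate 3, Hist1h2ak not without Ctrl replicate 3 and Hist1h3h not without Ep1 replicate 2 or with only the groups compared in the fit (limma adjusted p = 0.0701). Hist1h2bg and Hist1h2ak reached 1 FPKM in no Ctrl library and passed the filter through PDT libraries.

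Hist1h2bj rose in Ep2 with Ep1, from 2.96 to 5.47 FPKM in Ep1 to 5.98 to 8.38 in Ep2 (log2 fold change 0.74 ± 0.20, limma adjusted p = 0.0185). That call was lost without Ep1 replicate 1 or 2 or Ep2 replicate 1 or 2 (adjusted p 0.0523 to 0.0667). Against Ctrl at 3.95 to 6.07 FPKM its log2 fold change was 0.50 (limma adjusted p = 0.0685), and 0.59 by voom (adjusted p = 0.0461), which called 50.0% of 14112 genes there. Hist1h2bc, the most abundant clustered H2B gene, was at 4.66 to 6.01 FPKM in the Ctrl libraries, 6.34 to 7.96 in Ep1 and 12.1, 4.81 and 6.88 in Ep2, and its log2 fold change of 0.41 ± 0.26 in Ep2 with Ctrl (limma adjusted p = 0.226) did not pass. Hist1h3c ranged from 0.741 to 3.002 FPKM in Ctrl and 2.29 to 4.67 in Ep2, and its log2 fold change was 0.68 ± 0.34 (limma adjusted p = 0.132). Hist1h2ae, the H2A gene head to head with Hist1h2bg, lay at 0.306 to 1.55 FPKM in Ctrl and 1.20 to 1.64 in Ep2 and was not called. For Ep1 with Ctrl the lowest adjusted p of a clustered gene was 0.0636, for Hist1h2ak, with a log2 fold change of 0.54 ± 0.16.

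Below the FPKM filter, 2 clustered genes differed in opposite directions, and they are described here without a test because they were picked after their values were seen. Hist1h2ac had 4, 3 and 2 fragments in Ctrl, 8, 5 and 5 in Ep1 and 25, 15 and 20 in Ep2. Hist4h4 had 18, 14 and 12 fragments in Ctrl, 9, 8 and 6 in Ep1 and 3, 2 and 1 in Ep2. Hist1h2ac was highest in Ep2 and Hist4h4 in Ctrl, and for both genes the 3 groups did not overlap. Each reached the 10 fragments in 3 libraries that voom required only through the group in which it was highest. Their windows were 94.4% and 97.7% unique, and the models run on for 2010 bases past the stem-loop in Hist1h2ac and 2445 in Hist4h4, and where in the model the fragments lay is not given by the table.

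Factors that make or degrade histone mRNA were followed beside the members. Of 32 listed names 28 were in the table and 26 were tested. In Ep2 with Ctrl 17 of 26 were called, 2 higher and 15 lower, against 23.9% higher and 29.3% lower of all genes. Their median log2 fold change was -0.18. Slbp, the stem-loop binding protein, was at 15.2, 14.7 and 14.97 FPKM in the Ctrl group, 15.8, 15.96 and 16.6 in Ep1 and 11.6, 12.1 and 11.1 in Ep2, and fell by 0.34 in Ep2 with Ctrl (limma adjusted p = 0.000179). Cpsf3, the nuclease of 3′-end cleavage, was at 14.2 to 14.99 FPKM in Ctrl and 7.93 to 9.91 in Ep2 and fell by 0.65 (limma adjusted p = 6.2e-05). Cpsf1, a subunit of the polyadenylation machinery, fell by 0.64 (limma adjusted p = 4.84e-06), and Eri1, a nuclease that trims the histone stem-loop, by 0.40 (limma adjusted p = 9.7e-05). The called genes that rose were Xrn1, the 5′ to 3′ exonuclease, by 0.33 (limma adjusted p = 0.00218), and Ctif, a translation factor that binds SLBP, by 0.31 (limma adjusted p = 0.0434). The Xrn1 log2 fold change was 0.11 after correction for gene length and GC content (limma adjusted p = 0.143). The Ctif call was lost with no filter (limma adjusted p = 0.0997), with only the groups compared in the fit, and without Ctrl replicate 2 or 3, Ep1 replicate 2 or 3, or Ep2 replicate 1 or 2, its log2 fold change being 0.20 without Ep2 replicate 1 (limma adjusted p = 0.126). Npat, the histone locus coactivator, was at 7.73 to 8.86 FPKM in Ctrl and 7.68 to 8.85 in Ep2 and had a log2 fold change of -0.02 (limma adjusted p = 0.846). For Ep1 with Ctrl 3 of 26 were called, 1 higher and 2 lower, against 11.3% of all genes.

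The S phase genes gave the context. All 22 listed genes, Slbp among them, fell in Ep2 with Ctrl (median log2 fold change -0.92), against 29.3% of all genes called lower, and 1 of 22 was called in Ep1 with Ctrl, against 11.3%. This list and that of the histone mRNA factors were chosen with earlier results of these data known. Their counts are therefore a description and not a test. H2afz at -0.75 lay within the range of the S phase genes, -1.32 to -0.34, whereas Hist1h1c at 0.72 and H1f0 at 0.59 lay above it. The part of the cell cycle in the histone values was not tested.

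**Figure D5:**
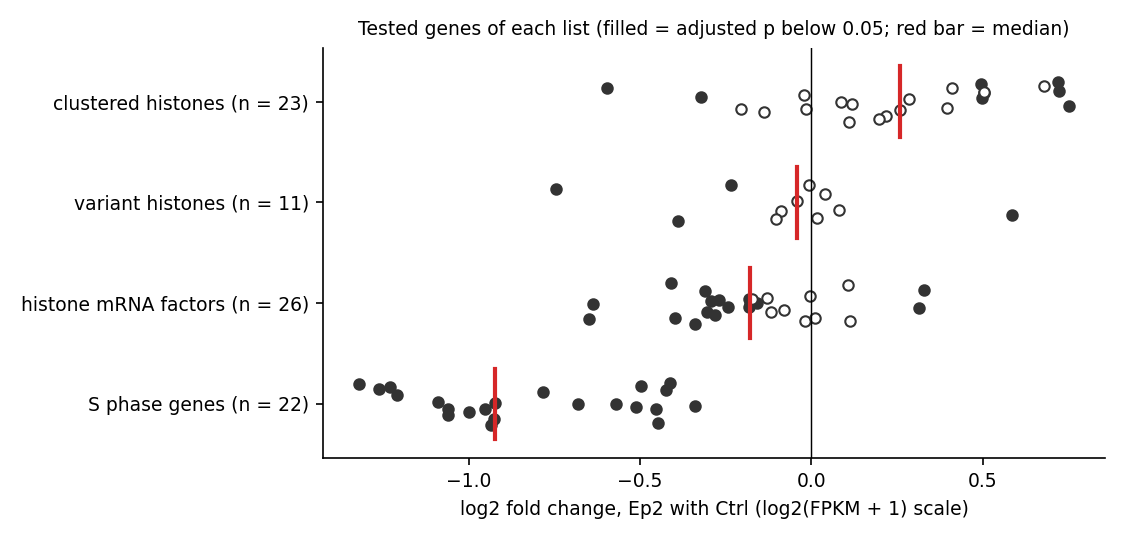
Log2 fold change in Ep2 with Ctrl on the log2(FPKM + 1) scale for the tested clustered histone genes, variant histone genes, histone mRNA factors and S phase genes, each point a gene, filled at adjusted p below 0.05, with a red bar at the median. The medians are 0.26, -0.04, -0.18 and -0.92, taken over the genes that passed the filter, and all 22 S phase genes lie below 0. For genes near 1 FPKM, among them many clustered genes, the added 1 shrinks the fold change.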

How the data were processed

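In all, 9 libraries were analysed, and the values used were FPKM per gene as the authors deposited them, in 1 table for the whole series. Per the study's methods, 150 bp paired-end reads were aligned to a mouse genome named GRCm39, while the processing notes list Bowtie 0.12.2 and mm8. The deposited coordinates overlapped GRCm38 positions for 99.9% of 35272 genes and GRCm39 positions for 12.6%, so they are given as GRCm38. The 9 single-library tables equalled the joint table. FPKM values gave whole fragments for 100% of values (within 0.05), 16240688 to 19509225 per library, and counting error applies to these.

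Genes that reached FPKM 1 in 3 or more libraries entered limma 3.58.1 (R 4.3.3) on log2(FPKM + 1) with trended, robust variance and all 3 groups in 1 fit, and a gene was called at adjusted p below 0.05 (Benjamini-Hochberg). The script was tested on simulated data. Voom on recovered fragments (10 or more in 3 libraries), other filters, scalings and left-out libraries were alternatives. Tables were handled in Python 3.11.15. Named genes were all variants past the filter, the 2 most abundant clustered genes of each histone, clustered genes called against Ctrl, and histone mRNA factors with the smallest adjusted p plus Slbp and Npat. The members, lists and naming rule were chosen with earlier results of these data known. Stem-loops, hexamers and unique 150-base windows came from GENCODE M39 transcripts.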

Additional observations from a re-analysis of the deposited data

How the results depend on the processing

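In Ep2 with Ctrl the 8 clustered calls became 2 of 4 genes tested at a filter of FPKM 5, and leaving out 1 library gave 3 to 8. In Ep2 with Ep1 the 4 clustered calls ranged from 2 to 6 on leaving out 1 library. In Ep1 with Ctrl the 0 clustered calls became 2 when only the groups compared were fitted, 1 after gene length correction and 1 after gene length and GC correction (the last chosen after seeing the data), and 0 to 1 on leaving out a library. The 1 variant call in Ep1 with Ctrl became 2 at filter FPKM 5, with median centring, with only the groups compared, with voom and with length and GC correction, and 0 to 2 on leaving out a library. The variant calls ranged from 4 to 5 in Ep2 with Ctrl and from 5 to 8 in Ep2 with Ep1 when 1 library was left out. The 3 factor calls in Ep1 with Ctrl became 1 with no filter and 6 by voom, and 1 to 5 on leaving out a library. For the named genes, 717 of the alternative values kept direction and side of the threshold, 58 lost the call, 16 gained it and 12 turned sign. Settings in which a gene was not tested are missing from this tally. In Ep2 with Ctrl, Hist1h1c had 18 alternatives, Hist1h4j 14 and Hist1h2ak 13. Genes outside a filter are missing from the counts of calls above as well. The sign turned only for values near 0 that were not called. H2afz in Ep1 with Ctrl was 0.0269 after length correction, 0.0560 after length and GC correction and -0.0296 to 0.0222 with a library left out. H2afv in Ep2 with Ctrl was 0.0046 with median centring, 0.0499 after length correction, 0.0348 after length and GC correction and -0.0752 to 0.00018 with a library left out. Npat in Ep2 with Ctrl was 0.0290 with median centring and -0.0709 to 0.0308 with a library left out. The cause was not tested.

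No sign of pairing by replicate number was seen, as no correlation of deviations between libraries of the same number was over 0.1 (highest 0.0744). Correlations between libraries of unlike number ran up to 0.153, so this measure cannot exclude pairing. With the number as a replicate block, the clustered calls in Ep1 against Ctrl, Ep2 against Ctrl and Ep2 against Ep1 were 0, 7 and 3, with Hist1h2ab lost in Ep2 with Ctrl (limma adjusted p = 0.0570), the variant calls 1, 4 and 8, and the factor calls 4, 17 and 18. The share of clustered genes in histone fragments was 4.77% in Ctrl, 4.71% in Ep1 and 6.82% in Ep2, below their share in FPKM. For genes near 1 FPKM, a few fragments per library limit the precision.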
